A study of Mus musculus with 6 samples.

Results

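The genes for the chains of collagens and laminins were followed in the murine lung cancer cell line 889, whose RNA was sequenced in 6 libraries. Members were chosen by name, as every gene called Col or Lam with the chain numbers that these families carry. The count tables listed 55 such genes among 34745, of which 44 were collagens and 11 laminins. The cells came from the lung of C57BL/6 mice per the labels. The 3 libraries of the sg-con group came from control cells, for which the study describes a single guide RNA against EGFP. The 3 libraries labelled sg-kiaa1522 came from cells given Cas9 with a guide RNA against mouse kiaa1522 (C77080), and GEO lists their treatment as KIAA1522-downregulated. Both groups received the Cas9 vector and were selected with puromycin or by sorting, and no other treatment is named. Which of the 2 guide sequences the sequenced cells carried, and whether the replicates were separate cultures, is not given in the sources used here. The p-values therefore measure only the spread between these libraries, which may be technical. The comparison belongs to the study's question of which genes respond to loss of KIAA1522, a protein it connects with resistance to cisplatin.

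Collagens are secreted proteins of 3 chains wound into a triple helix. Types I, III, V and XI assemble into the striated fibrils of connective tissue, whereas collagen IV forms the sheet-like network of basement membranes. Laminins are trimers of an α, a β and a γ chain. Many of them are cross-shaped, polymerise on the cell surface and lay down the other layer of the basement membrane. A trimer is secreted only as far as its chains are made together, so the chains are usually considered in pairs. In the lung, epithelial cells rest on a basement membrane of both families, to which epithelium and underlying fibroblasts contribute.

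The libraries held between 12220001 and 18609376 counts, and members took 0.457% to 0.505% of the counts in sg-con and 0.383% to 0.394% in the libraries labelled sg-kiaa1522. The mRNA of the targeted gene C77080 was not lower where it was targeted. Its counts were 2214, 2404 and 2064 in sg-con, and 2554, 3726 and 3667 in the libraries labelled sg-kiaa1522. In edgeR's quasi-likelihood fit this was a log2 fold change of 0.73 ± 0.0569 (SE, adjusted p = 9.1e-05). Every direction below is thus that of libraries in which kiaa1522 mRNA was higher, and protein was not measured in these files. The mRNA counts therefore cannot tell whether KIAA1522 protein was lost. Among 12 epithelial markers, Krt18 (23704 to 40322 counts) and Krt8 were abundant, whereas Epcam had no count in any library. Of the 6 that were tested, 5 were lower in the libraries labelled sg-kiaa1522, with log2 fold changes of -1.45 for Cdh1, -0.73 for Krt19, -0.67 for Sftpb, -0.40 for Krt8 and -0.19 for Krt18 (adjusted p of 0.0496 or less by edgeR quasi-likelihood). At an adjusted p of up to 0.05, 26.3% of all tested genes were lower. The CPM values of Krt18 (counts scaled to library size) overlapped between the groups. Nkx2-1 varied widely within both groups (970, 1096 and 227 counts against 132, 174 and 671). The part of these markers in the results below was not tested. Of 11 fibroblast markers, Pdgfrb was present with 3470 counts in all, while Thy1, Fap and Tcf21 were at 0 and the other 7 had 19 counts or fewer in all.

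Most of the family was barely transcribed. No read was counted in any library for 11 genes, namely Lama1, Col6a4, Col6a5, Col6a6, Col9a1, Col9a2, Col13a1, Col19a1, Col22a1, Col25a1 and Col26a1. Another 21 genes had 2 to 49 counts in all, and none of them had more than 19 counts in 1 library. For 9 genes the sum lay between 50 and 500, and 14 genes, 8 collagens and 6 laminins, passed the study's minimum of more than 500 counts and were tested. Col20a1 lay just inside this minimum with 860 counts, and Col16a1 and Col1a1 lay just outside it with 476 and 451. Col20a1 is also the only tested member that passed through the libraries labelled sg-kiaa1522 alone.

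Levels of different genes were compared as FPKM, that is CPM (counts scaled to library size with TMM factors) per kilobase of summed exons. In sg-con the highest levels were those of Lama5 at 65.9 ± 5.48 FPKM (SD, n = 3), Col4a2 at 64.4 ± 4.55 and Col4a1 at 63.9 ± 3.58, which did not differ beyond their spread. They were followed by Lamb1 with 59.5 ± 1.05 FPKM, Lamc1 with 55.5 ± 6.20 and Col18a1 with 50.02 ± 1.14. Lamb3 stood at 44.2 FPKM, Lamb2 at 34.6, Col1a2 at 33.9 and Col8a1 at 28.1. Lamb2 and Col1a2 did not differ beyond their SDs of 1.04 and 0.650 FPKM. The lowest levels of tested members in sg-con were those of Col5a1 (17.2 FPKM), Col4a5 (11.7 FPKM) and Col20a1 (0.404 FPKM). By summed exons the controls therefore expressed chains of the basement membrane most highly, with 1 fibrillar chain, Col1a2, among the middle levels. This order depends on the length used, as given at the end.

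**Figure D1:**
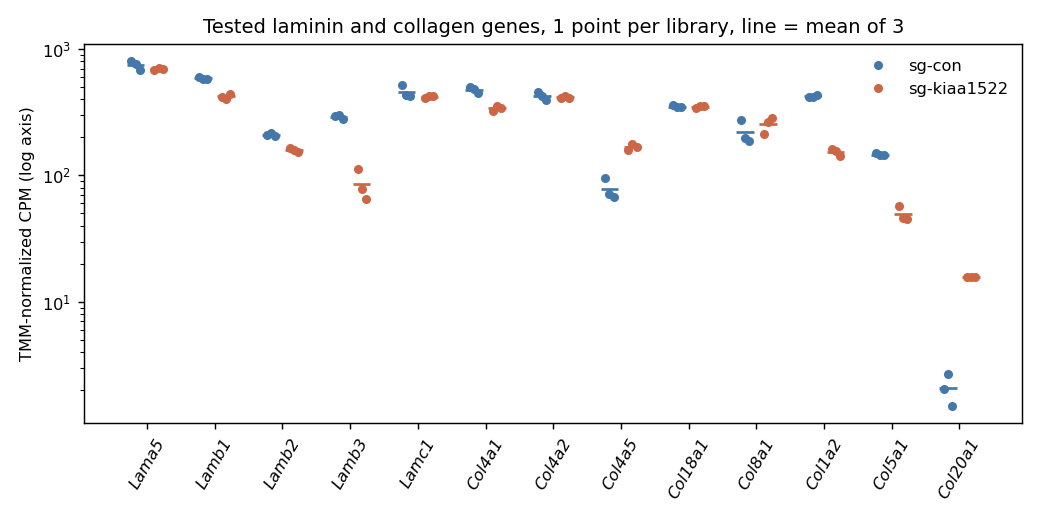
TMM-normalized CPM, the counts scaled to library size (log axis), of 13 of the 14 tested genes. Each point is 1 library, blue for sg-con and orange for the libraries labelled sg-kiaa1522, and lines are means of 3. Lamb3, Col1a2 and Col5a1 drop in all 3 orange libraries, Col4a5 and Col20a1 rise, and Lama5, Col4a2, Col18a1 and Col8a1 overlap between the groups.

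Of the 14 tested members, 3 were lower in the libraries labelled sg-kiaa1522 past both thresholds, namely Lamb3, Col1a2 and Col5a1. The thresholds were those of the study's methods, an adjusted p up to 0.05 and a log2 change of 1 or more in size. Col4a5 and Col20a1 were higher by the same rule. Over all 10046 tested genes this rule called 4.34% lower and 2.74% higher. By adjusted p alone, 6 members were lower, 2 were higher and 6 did not pass, where 26.3% of all tested genes were lower and 26.3% higher. The CPM values of the groups did not overlap for 7 members that were lower and 3 that were higher, against 31.1% and 30.6% of all tested genes. The median log2 fold change of tested members was -0.12, that of all tested genes -0.0067. Col20a1 entered these member counts only through its level in the libraries labelled sg-kiaa1522.

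**Figure D2:**
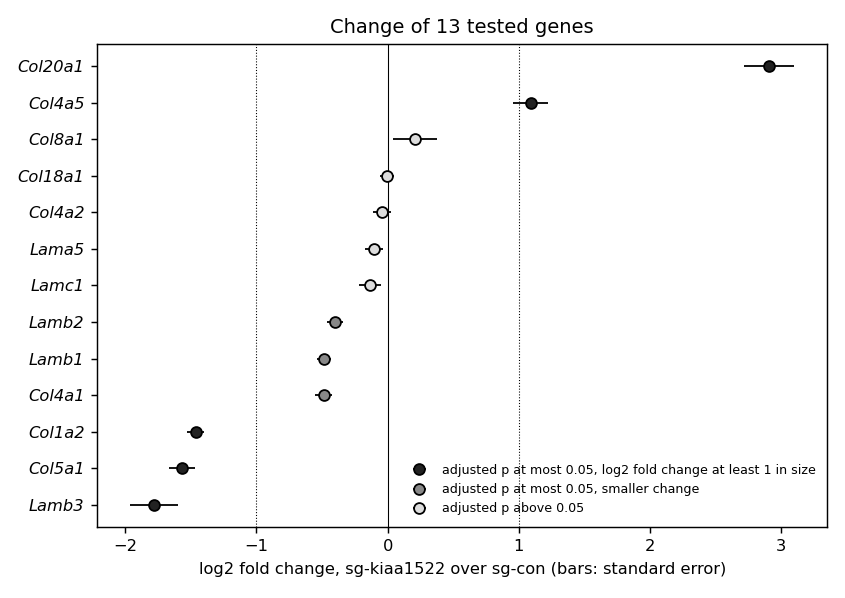
Log2 fold change of the libraries labelled sg-kiaa1522 over sg-con for 13 of the 14 tested genes, with bars of 1 standard error from edgeR's quasi-likelihood test. Dotted lines mark a log2 fold change of 1 in either direction. Black points (Lamb3, Col5a1, Col1a2, Col4a5 and Col20a1) are past both thresholds, dark grey points (Col4a1, Lamb1 and Lamb2) past the adjusted p alone, and pale points past neither.

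Both tested genes of the fibrillar collagens, Col1a2 and Col5a1, fell. Col1a2, the α2 chain of type I collagen (ENSMUSG00000029661, GRCm38 chr6:4504814-4541544, plus strand, up to 52 exons), had 7294, 7780 and 7220 counts in sg-con. In the libraries labelled sg-kiaa1522 it had 1965, 2867 and 2422 counts. All 3 of these libraries were below all controls, and the mean CPM went from 422 ± 8.07 to 153 ± 9.86 (SD, n = 3). This gave a log2 fold change of -1.46 ± 0.0661 (SE, adjusted p = 1.5e-05 by edgeR quasi-likelihood).

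Col5a1, the α1 chain of type V collagen, which starts and limits the width of type I fibrils, moved by a similar amount. The gene (ENSMUSG00000026837, chr2:27886425-28039514, plus strand, up to 66 exons) had 2620, 2706 and 2410 counts in sg-con and 700, 849 and 765 in the libraries labelled sg-kiaa1522. The groups lay far apart, with mean CPM of 146 ± 3.00 and 49.4 ± 6.92 (SD, n = 3). Col5a1 changed by -1.57 ± 0.101 on the log2 scale (SE, adjusted p = 4.8e-05 by edgeR quasi-likelihood). The annotation places 2 antisense genes over 99 and 113 exon bases of Col5a1, which cannot be told apart from it if the counting ignored strand.

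Type I collagen usually has 2 chains of α1 for each of α2, yet Col1a1, the α1 gene, was scarce in these cells and went untested. It had 105, 126 and 137 counts in sg-con and 20, 29 and 34 in the libraries labelled sg-kiaa1522. In a fit of all genes that had any count, its log2 fold change was -1.99 (adjusted p = 1.2e-05 by edgeR quasi-likelihood). On the FPKM scale Col1a2 was 27.8 to 36.7 times Col1a1 in sg-con and 37.6 to 52.2 times in the libraries labelled sg-kiaa1522. Col1a2 mRNA was thus in large excess over its partner in each of the 6 libraries. Of the other fibrillar chains, Col11a2 had 207 counts in all and Col24a1 83, as given further on. Col5a2, the usual partner of Col5a1, had 20, Col3a1 had 14, Col2a1 12, Col11a1 6, Col5a3 3 and Col27a1 2.

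Summed over the 11 fibrillar genes, among which the untested Col11a2 was higher, the level was 577 ± 6.91 CPM in sg-con and 209 ± 15.5 CPM in the libraries labelled sg-kiaa1522 (SD, n = 3). The values of the groups did not overlap. Most of this sum came from Col1a2 (422 CPM in sg-con, 153 CPM in the libraries labelled sg-kiaa1522) and Col5a1 (146 and 49.4 CPM). It therefore mainly restates those 2 genes. In bulk RNA, fewer cells expressing a gene and less of its RNA per cell cannot be told apart. The summed level of the fibroblast markers moved in the same direction, from 42.5 to 44.7 CPM in sg-con to 22.2 to 34.0 CPM in the libraries labelled sg-kiaa1522. Only 1 of its 11 genes, Pdgfrb (726, 799 and 740 counts against 414, 424 and 367), was high enough to be tested, and its part in the collagen result was not tested.

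All 3 laminin β chains fell, while Lama5 and Lamc1 did not pass the test. Lamb3, the β chain of the laminin that anchors epithelial cells through hemidesmosomes, fell most of all tested members. The gene (ENSMUSG00000026639, chr1:193207699-193343878, plus strand, up to 27 exons) had 5195, 5613 and 4652 counts in sg-con. The libraries labelled sg-kiaa1522 had 1368, 1434 and 1119 counts. Their CPM values of 112, 77.9 and 65.6 were all below the lowest control at 278 CPM, although they varied more among themselves than the controls did. The means were 292 ± 12.5 and 85.2 ± 24.1 CPM (SD, n = 3), which is -1.78 ± 0.180 on the log2 scale (SE, adjusted p = 2.3e-04 by edgeR quasi-likelihood).

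Lamb1, the β chain of the most widespread laminins (ENSMUSG00000002900, chr12:31265234-31329644, plus strand), had 10543, 10863 and 9802 counts in sg-con and 5120, 7485 and 7491 in the libraries labelled sg-kiaa1522. Its mean level went from 590 ± 10.4 to 422 ± 16.5 CPM (SD, n = 3) without overlap. With a log2 fold change of -0.48 ± 0.0552 (SE, adjusted p = 3.9e-04 by edgeR quasi-likelihood), it passed the test but stayed under the fold threshold. Lamb2, a β chain of muscle, kidney and nerve basement membranes, had 3665, 4050 and 3434 counts against 2029, 2922 and 2615. Lamb2 changed by -0.40 ± 0.0600 on the log2 scale (SE, adjusted p = 0.0012 in the same test), and its groups did not overlap in CPM.

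The partners of the β chains gave smaller values. Lama5, the only α chain with more than 2 counts in all, is the main α chain of adult epithelial basement membranes. The gene (ENSMUSG00000015647, chr2:180176373-180225859, minus strand, up to 79 exons) had 14039, 14293 and 11401 counts in sg-con and 8358, 13090 and 11894 in the libraries labelled sg-kiaa1522. In CPM the groups overlapped, since replicate 3 of sg-con (681 CPM) lay below all of the libraries labelled sg-kiaa1522 (685 to 711 CPM). Lama5 did not pass, at a log2 fold change of -0.10 ± 0.0708 (SE, adjusted p = 0.25 by edgeR quasi-likelihood). Without replicate 3 of sg-con it was -0.17 (adjusted p = 0.0498).

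Lamc1, the γ chain of most laminins (ENSMUSG00000026478, chr1:153218922-153332786, minus strand), had 9078, 8093 and 7125 counts in sg-con and 4967, 7815 and 7195 in the libraries labelled sg-kiaa1522. Its groups did not overlap in CPM, but by little: the lowest control was at 425 CPM and the highest library labelled sg-kiaa1522 at 424 CPM. Nor did it pass, at a log2 fold change of -0.14 ± 0.0837 (SE, adjusted p = 0.20 by edgeR quasi-likelihood).

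Sums per chain type were taken on the FPKM scale, with no test. The 3 β chains together went from 138 ± 3.08 to 81.6 ± 4.36 FPKM (SD, n = 3) without overlap. The α chains stood at 65.9 ± 5.48 and 61.3 ± 1.11 FPKM, with overlapping groups. Within the β chains the shares of the groups did not overlap. Lamb3 held 31.9% ± 0.682 of β chain FPKM in sg-con and 15.7% ± 3.60 in the libraries labelled sg-kiaa1522, and Lamb1 held 43.0% ± 0.959 and 52.2% ± 3.46. The remaining laminin genes were at the limit of detection, with 4 counts in all for Lamc3 and 2 each for Lama2, Lama3 and Lama4. Lama3, the usual α partner of Lamb3, was therefore not detectable beyond the floor of 3 counts per library, which corresponds to 0.161 to 0.246 CPM and covers counting error only.

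Of the 3 tested collagen IV genes, Col4a1 fell, Col4a5 rose and Col4a2 did not pass, while their summed level overlapped between the groups. Over its 6 genes the sum was 986 ± 71.6 CPM in sg-con and 922 ± 31.6 CPM in the libraries labelled sg-kiaa1522 (SD, n = 3). Col4a1 and Col4a2 encode the chains of the widespread network, with 2 of α1 for each of α2. Col4a1 (ENSMUSG00000031502, chr8:11198423-11312826, minus strand) had 8773, 8971 and 7506 counts in sg-con and 3948, 6493 and 5859 in the libraries labelled sg-kiaa1522. Its groups did not overlap, with means of 477 ± 26.8 and 340 ± 14.7 CPM. Col4a1 changed by -0.49 ± 0.0656 on the log2 scale (SE, adjusted p = 7.7e-04 by edgeR quasi-likelihood).

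Col4a2 (ENSMUSG00000031503, chr8:11312805-11449287, plus strand) had 7984, 7965 and 6629 counts in sg-con and 4985, 7811 and 6986 in the libraries labelled sg-kiaa1522. Its CPM values overlapped, with means of 426 ± 30.1 and 414 ± 8.64. It did not pass, at a log2 fold change of -0.042 ± 0.0664 (SE, adjusted p = 0.62 in the same test). The gene starts head to head with Col4a1, and the first exons of the pair share 22 bases at chr8:11312805-11312826, shown here because both genes are read outwards from this stretch in opposite directions (RefSeq, GRCm38, plus strand).
Col4a1 and Col4a2 shared bases: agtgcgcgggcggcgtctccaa

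Col4a5, the X-linked chain that joins α3 and α4 in the mature network of kidney and lung and is mutated in Alport syndrome, went the other way. The gene (ENSMUSG00000031274, chrX:141475385-141689234, plus strand, up to 54 exons) had 1685, 1333 and 1139 counts in sg-con and 1924, 3269 and 2849 in the libraries labelled sg-kiaa1522. The lowest of the latter, at 158 CPM, was above the highest control, at 96.2 CPM. The means were 78.6 ± 15.4 and 167 ± 9.87 CPM (SD, n = 3). Col4a5 changed by 1.09 ± 0.133 on the log2 scale (SE, adjusted p = 5.1e-04 by edgeR quasi-likelihood). Without replicate 3 of sg-con it was 0.99, just under the fold threshold.

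Of collagen IV FPKM, Col4a5 held 8.29% ± 1.05 in sg-con and 18.7% ± 0.466 in the libraries labelled sg-kiaa1522, while Col4a1 held 45.5% ± 0.906 and 34.2% ± 0.468 (SD, n = 3). The partners of Col4a5 were rare. Col4a4 had 70, 47 and 54 counts in sg-con and 8, 1 and 16 in the libraries labelled sg-kiaa1522. Col4a3, which lies head to head with Col4a4 across 71 bases, had 17, 13 and 7 counts against 1, 1 and 1. Both were thus rare in sg-con and below it in each library labelled sg-kiaa1522, neither being tested. Col4a6, the head-to-head neighbour of Col4a5, totalled 29 counts.

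**Figure D3:**
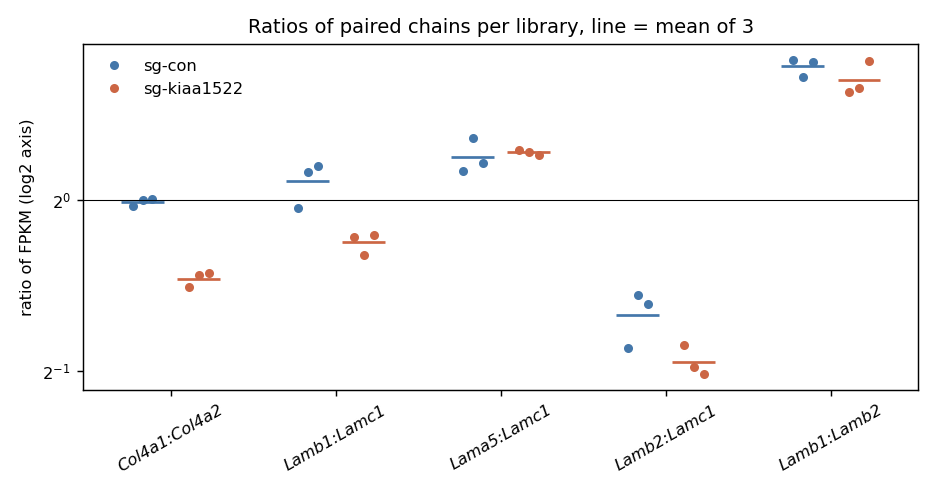
FPKM ratio of 5 pairs of chains, 4 that can share a trimer and the 2 β chains Lamb1 and Lamb2, on a log2 axis. Each point is 1 library, blue for sg-con and orange for the libraries labelled sg-kiaa1522, and lines are means of 3. Col4a1:Col4a2 drops from 0.974 to 1.00 in the blue points to 0.702 to 0.744 in the orange points, while Lama5:Lamc1, Lamb2:Lamc1 and Lamb1:Lamb2 overlap.

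Ratios within a library compare partner chains without the total depth. The FPKM ratio of Col4a1 to Col4a2 was 0.974, 0.999 and 1.00 in sg-con and 0.702, 0.737 and 0.744 in the libraries labelled sg-kiaa1522. That of Lamb1 to Lamc1 was 0.969, 1.12 and 1.15 against 0.860, 0.799 and 0.868. Neither pair overlapped between the groups, with differences of -0.45 and -0.35 in mean log2 ratio. For both pairs the exact two-sided permutation test gave p = 0.1, the smallest that 3 libraries against 3 allow, and 0.25 after Benjamini-Hochberg adjustment over the 5 pairs. The difference was 0.031 for Lama5 to Lamc1 (exact p = 0.7), -0.27 for Lamb2 to Lamc1 (exact p = 0.2) and -0.083 for Lamb1 to Lamb2 (exact p = 0.3).

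The other collagens of high level belong to basement membrane zones and vessel walls. Col18a1, a heparan sulphate collagen whose end fragment is endostatin, had 6309, 6436 and 5824 counts in sg-con and 4166, 6515 and 6068 in the libraries labelled sg-kiaa1522. Its groups overlapped and its log2 fold change was -0.0035 ± 0.0531 (SE, adjusted p = 0.96 by edgeR quasi-likelihood). Col8a1, a short-chain collagen of endothelial and corneal membranes, varied within both groups. Its CPM values were 275, 197 and 189 in sg-con and 213, 264 and 286 in the libraries labelled sg-kiaa1522, so that the groups overlapped. Its log2 fold change of 0.21 ± 0.165 (SE, adjusted p = 0.32 in that test) became 0.40 without replicate 1 of sg-con (adjusted p = 0.030).

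A single fibril-associated collagen was tested, and it rose from a very low level. Col20a1, a little-studied member of this class (ENSMUSG00000016356, chr2:180986535-181018363, plus strand, up to 37 exons), had 36, 50 and 25 counts in sg-con and 191, 290 and 268 in the libraries labelled sg-kiaa1522. That is 2.08 ± 0.596 CPM against 15.7 ± 0.0420 CPM (SD, n = 3), with no overlap. Col20a1 changed by 2.91 ± 0.192 on the log2 scale (SE, adjusted p = 5.2e-05 by edgeR quasi-likelihood). An overlapping gene on the same strand, BX649560.1, covers 79 exon bases of Col20a1, or 1.54%, and reads there are uncertain. Even after this rise Col20a1 was at 3.05 FPKM, lower than any other tested member.

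Below the minimum for testing, 6 of the 9 genes with 50 to 500 counts were higher in all libraries labelled sg-kiaa1522, 2 were lower and 1 overlapped in CPM. Of all 2204 genes in this range of counts, 22.2% were higher and 30.4% lower without overlap. Col6a1 and Col6a2, chains of the beaded filaments around cells, had 51, 26 and 44 counts against 85, 111 and 71, and 17, 8 and 8 against 25, 33 and 25. Their partner Col6a3 had 24 counts in all. Col7a1, the anchoring fibril collagen that ties the epithelial basement membrane to the stroma, had 24, 25 and 18 counts in sg-con and 37, 66 and 50 in the libraries labelled sg-kiaa1522. Like the collagen VI chains it was thus higher in all 3 of them, at a level at which counting noise is large.

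Col11a2, a fibrillar chain of cartilage, had 14, 13 and 1 counts in sg-con and 47, 62 and 70 in the libraries labelled sg-kiaa1522. Col9a3, a fibril-associated chain of cartilage that shares 6.07% of its exon bases with Tcfl5 on the other strand, had 11, 9 and 5 counts against 22, 32 and 34. Col16a1, another fibril-associated chain, had 61, 56 and 76 against 79, 93 and 111. All 3 genes were higher in each library labelled sg-kiaa1522, without a test at the main minimum. Col24a1, a fibrillar chain, overlapped, with 14, 12 and 11 counts against 11, 11 and 24. In the fit of all genes that had any count, edgeR's quasi-likelihood test gave these genes log2 fold changes of 1.31 for Col6a1, 1.49 for Col6a2, 1.34 for Col7a1, 2.83 for Col11a2, 1.96 for Col9a3 and 0.71 for Col16a1. Each of these had an adjusted p of 0.014 or less there, and Col4a4 had 0.0013 at a log2 fold change of -2.59. That fit called 6 members lower and 7 higher past both thresholds, where it called 5.09% and 4.15% of its 18499 genes. With edgeR's filterByExpr as the minimum, 5 members were lower and 7 higher, against 6.69% and 5% of 12141 genes. Col6a2, Col9a3 and Col11a2 passed that minimum only through the libraries labelled sg-kiaa1522, and Col4a4 only through sg-con.

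The members under 50 counts that have not been named were Col15a1 with 49 counts in all, Col12a1 with 17, Col8a2, Col10a1 and Col14a1 with 5 each, Col17a1 and Col23a1 with 3 each and Col28a1 with 2. Col17a1 is the transmembrane collagen of hemidesmosomes, so that this partner of the Lamb3 laminin was, like Lama3, at the limit of detection.

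**Figure D4:**
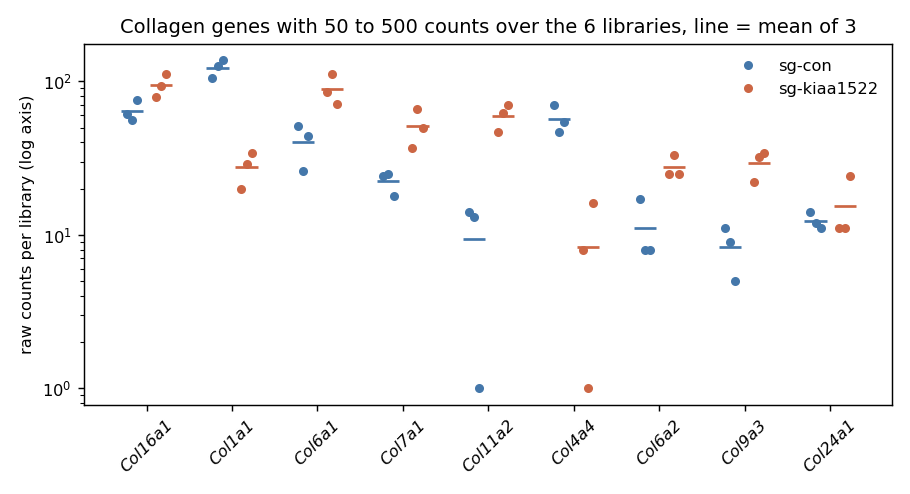
Raw counts per library (log axis) of the 9 collagen genes with 50 to 500 counts in all. Points are libraries, blue for sg-con and orange for the libraries labelled sg-kiaa1522, and lines are means of 3. Col1a1 and Col4a4 are lower in every orange library, with 20 to 34 and 1 to 16 counts, while Col16a1, Col6a1, Col7a1, Col11a2, Col6a2 and Col9a3 are higher.

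RefSeq windows of 250 bases before the start site (GRCm38.p6) were found for 40 members, and for 12 of the 14 tested ones in 14 windows. The window of Lamc1 was not used here. The parts free of annotated exons are printed on the strand of the gene for the 4 called members that have such a part, so that the promoters of genes that moved in opposite directions can be set side by side. Capitals mark GC boxes, searched as GGGCGG on both strands, and CCAAT boxes, searched as CCAAT on both strands. The stretches lie at chr6:4505370-4505492 for Col1a2, chr2:27886175-27886424 for Col5a1, chr1:193301744-193301992 for Lamb3 and chrX:141475169-141475384 for Col4a5, all on the plus strand.
Col1a2: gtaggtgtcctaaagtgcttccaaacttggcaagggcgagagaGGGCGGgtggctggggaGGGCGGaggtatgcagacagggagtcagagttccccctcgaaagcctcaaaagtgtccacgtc
Col5a1: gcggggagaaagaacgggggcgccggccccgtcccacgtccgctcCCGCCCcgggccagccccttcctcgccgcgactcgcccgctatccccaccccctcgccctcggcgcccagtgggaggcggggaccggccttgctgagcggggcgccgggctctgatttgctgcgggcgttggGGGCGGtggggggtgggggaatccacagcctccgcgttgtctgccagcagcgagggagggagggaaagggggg
Lamb3: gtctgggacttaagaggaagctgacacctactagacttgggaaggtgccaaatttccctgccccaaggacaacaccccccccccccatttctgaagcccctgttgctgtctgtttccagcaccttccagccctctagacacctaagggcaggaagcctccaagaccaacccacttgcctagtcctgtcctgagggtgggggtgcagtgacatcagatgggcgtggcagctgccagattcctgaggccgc
Col4a5: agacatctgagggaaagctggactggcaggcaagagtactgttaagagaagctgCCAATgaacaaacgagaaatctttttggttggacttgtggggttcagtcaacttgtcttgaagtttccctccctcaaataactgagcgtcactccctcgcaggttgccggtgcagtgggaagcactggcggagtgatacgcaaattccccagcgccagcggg

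The Col1a2 and Col5a1 stretches each hold 2 GC boxes, the Col4a5 stretch holds 1 CCAAT box, and the Lamb3 stretch, 1 of 2 RefSeq starts of that gene, holds neither. The exon parts that are not printed add 1 CCAAT box to the Col1a2 window and 1 GC box to the Col4a5 window. In full, these windows of a gene that fell and a gene that rose therefore both hold both boxes. In the full windows of tested members a GC box was found in 8 of 14 and a CCAAT box in 6 of 14, against 32.7% and 33.8% of all 32851 windows of this length. The AP-1 letters TGANTCA were in 0 of 14 member windows and 6.75% of all windows. A consensus for NF-kB, the pathway the study examines, was in 2 of 14 and in 7.25%. The windows of Col4a1 and Col4a2 lie over each other's first exons, so they are not independent. These matches describe letters in a window and not sites of binding.

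The genes that work beside collagens and laminins were counted in 3 lists. Of 36 matrix partners, which share basement membranes or fibrils with them, 19 were tested. At adjusted p alone 9 were lower, 2 were higher and 8 did not pass, where 26.3% of all tested genes went each way, and the median log2 fold change was -0.44. Past both thresholds 3 were lower and 1 higher, against 4.34% and 2.74% of all tested genes. Npnt, a basement membrane ligand of integrins (10152, 9889 and 6910 counts against 2006, 3249 and 2917), fell with a log2 fold change of -1.57. Fbln2, which bridges laminins and fibronectin, fell by 1.53 on the log2 scale and Ntn4, a netrin that binds laminin γ chains, by 1.32. Thbs2, a matrix protein that shapes collagen fibrils, rose from 26, 33 and 17 counts to 204, 297 and 179, with a log2 fold change of 3.32, and passed the count minimum only through the libraries labelled sg-kiaa1522. The adjusted p was at most 1.4e-04 for each of these 4 genes in edgeR's quasi-likelihood test. The nidogens, which link laminin to collagen IV, were scarce, with 69 counts in all for Nid1 and 39 for Nid2.

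Of 19 receptors 13 were tested, with 3 lower, 2 higher and 8 not passing at adjusted p alone, against 26.3% of all tested genes each way, and a median log2 fold change of -0.075. Bcam, a receptor of the laminin α5 chain, fell by 1.24 on the log2 scale (7582, 8532 and 8429 counts against 2499, 3500 and 3338, adjusted p = 3.3e-05 in edgeR's quasi-likelihood test). Ddr2, a kinase activated by fibrillar collagen, rose from 6, 1 and 5 counts to 165, 243 and 261. Its log2 fold change was 5.90 ± 0.315 (SE, adjusted p = 2.4e-05 in the same test), and it passed the count minimum only through the libraries labelled sg-kiaa1522. The related Ddr1 fell by 0.57. The laminin-binding integrin chains Itga3 (-0.089) and Itga6 (0.13) and the shared chain Itgb1 (-0.058) did not pass, whereas the laminin-binding chains Itga7 (-0.74, adjusted p = 0.019) and Itgb4 (0.39, adjusted p = 0.041) did in that test.

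Of 32 genes that fold, modify, cleave or crosslink collagen chains 23 were tested. By adjusted p alone 10 were lower, 6 were higher and 7 did not pass, against 26.3% of all tested genes each way, and the median log2 fold change was -0.12. P4ha3, a catalytic subunit of prolyl 4-hydroxylase, which hydroxylates collagen prolines, had 787, 783 and 768 counts in sg-con and 181, 208 and 174 in the libraries labelled sg-kiaa1522. It changed by -1.88 ± 0.142 on the log2 scale (SE, adjusted p = 8.2e-05 by edgeR quasi-likelihood). Pcolce, which enhances removal of the procollagen end piece, fell by 1.01 on the log2 scale, at the edge of the fold threshold. It was under that threshold without replicate 2 (-0.95) or 3 (-0.94) of sg-con or replicate 3 of the libraries labelled sg-kiaa1522 (-0.98), and with a filterByExpr minimum (-0.997). Fkbp10, a collagen chaperone, rose from 30, 27 and 36 to 168, 196 and 194 counts, with a log2 fold change of 2.75, also a gene that passed the minimum only through those libraries. Serpinh1, the collagen-specific chaperone, rose by 0.99 on the log2 scale with an adjusted p of 1.1e-04 in that test.

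**Figure D5:**
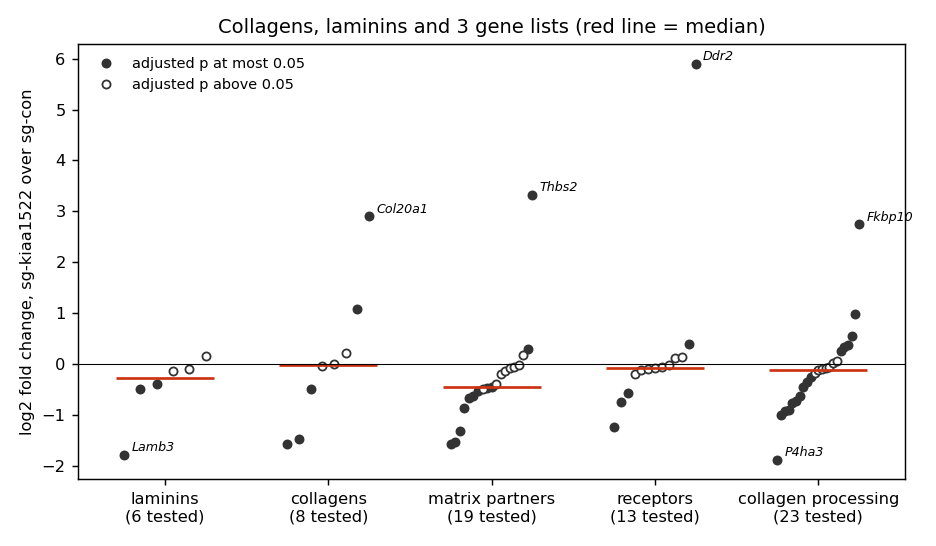
Log2 fold change of the libraries labelled sg-kiaa1522 over sg-con for tested laminins, collagens and the 3 gene lists. Each point is 1 gene, filled where the adjusted p of edgeR's quasi-likelihood test is at most 0.05, and red lines are medians. The medians are -0.27 for laminins, -0.023 for collagens, -0.44 for matrix partners, -0.075 for receptors and -0.12 for collagen processing.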

How the data were processed

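Total RNA of 889 cells was sequenced in 3 sg-con libraries and 3 libraries labelled sg-kiaa1522. The authors removed adaptors and rRNA reads with Seqtk, mapped reads to GRCm38 with HISAT2 2.0.4 and counted uniquely mapped fragments per gene with StringTie 1.3.0, per the paper's methods and the submitters' processing notes. The deposited values are raw counts of 34745 genes, without normalization. The annotation release and strand setting of the counting are not given in the sources used here.

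From these, edgeR 4.0.16 in R 4.3.3 gave TMM-normalized CPM and a quasi-likelihood test, with group as the only term, of the 10046 genes whose summed counts exceeded 500. Benjamini-Hochberg adjustment ran over all of them. This is the filter and threshold of the study's methods, which name edgeR without saying which of its tests. The legend of the study's volcano plot names a larger fold cut-off, which was not used here. Exon lengths came from GENCODE M21 on GRCm38, with all 55 members matched, and promoter windows from RefSeq. The test was checked on simulated data.

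Members and lists were chosen with earlier results of these data known. The counts over members cover all 14 tested genes, and every one was named except 1 that is not reported here. Full values were given for those past both thresholds and the 5 of highest mean CPM. Members beside the count minimum and untested ones with 50 counts or more were named, and of each list up to 4 genes past the thresholds in each direction. Itga3, Itga6, Itga7, Itgb1, Itgb4, Ddr1, Serpinh1, Nid1 and Nid2 were added after their values were seen. Library pairs of a group differed by 10.6 times the sampling noise or more (chi-square per degree of freedom), so none was a copy. Summed epithelial markers lay between 3874 and 4595 CPM in sg-con and 3260 and 3505 CPM in the libraries labelled sg-kiaa1522, endothelial markers between 3.70 and 5.60 and 9.44 and 11.7 CPM, and leukocyte markers between 21.3 and 23.2 and 42.1 and 49.0 CPM. Among endothelial markers Vwf alone was high enough to be tested, and among leukocyte markers Cd14 and Cd68. The other markers of both lists lay under 3 CPM on average, some higher and some lower.

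DESeq2 1.42.0, RLE size factors, other filters, the replicate number as a block and leaving out each library were tried as alternatives.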

Additional observations from a re-analysis of the deposited data

How the results depend on the processing

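For the log2 fold changes of the 14 tested members, 151 of 154 values kept their side of an adjusted p of 0.05 and 3 newly passed, among them Lama5 and Col8a1 as given above. The sign was kept in 147 of 154. The exceptions were both uncalled: Col4a2, at 0.0014 without sg-con replicate 1, and Col18a1, at 0.00017 to 0.014 in 6 settings. With filterByExpr as the filter, 5 collagen and laminin genes were lower (6.69% of all genes) and 7 higher (5% of all genes), and with every gene of at least 1 count 6 were lower (5.09%) and 7 higher (4.15%), since rarely counted members then enter. All 5 called members remained in both. Of the added ones, Col4a4, Col6a2, Col9a3 and Col11a2 passed filterByExpr through 1 group only. At adjusted p alone 6 members were lower. Leaving out 1 library gave 3 lower each time and 1 to 2 higher, with 1 without sg-con replicate 3, where Col4a5 was under the fold threshold.

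Over all genes the calls were 436 lower and 275 higher, 812 and 607 with filterByExpr, 941 and 767 with every gene of at least 1 count, and 2639 and 2638 at adjusted p alone. For matrix partners the 3 lower and 1 higher became 5 and 2 with filterByExpr, 5 and 4 with every gene, and 9 and 2 at adjusted p alone. For receptors 1 lower became 2 without sg-kiaa1522 replicate 1 and 3 at adjusted p alone, with a range of 1 to 2 over left-out libraries, and 1 higher became 2 under both filters and at adjusted p alone. For collagen processing 2 lower became 3 without sg-con replicate 1 or sg-kiaa1522 replicate 1 and with every gene, 1 without sg-con replicate 2 or 3 or sg-kiaa1522 replicate 3 and 10 at adjusted p alone, and 1 higher became 3 under both filters, 2 without sg-con replicate 2 or 3 or sg-kiaa1522 replicate 2, and 6 at adjusted p alone. The cause of these moves in the lists was not tested.

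With the replicate number as a block, collagen processing had 1 gene lower, with Pcolce at -0.997, and no call of a collagen or laminin gene changed. Same-numbered libraries did not deviate together (correlations of -0.24, -0.053 and -0.17), so the numbers were not taken as a pairing. With mean transcript length in place of summed exons, FPKM in sg-con was 1.58 to 5.43 times higher and the ratio of Col4a1 to Col4a2 was 1.42 in sg-con and 1.04 in the libraries labelled sg-kiaa1522, so orders of levels hold for summed exons only. Of members under 50 counts, Col4a3 (40 counts) was called lower when every gene was tested, and counting error is large at such levels.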
